A study of Drosophila melanogaster with 10 samples.

Results

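The comparison set G1 libraries of Drosophila melanogaster S2 cells with a high Slimp signal against G1 libraries with a low one. Sides were taken from the arrays themselves and not from the genotype labels. A library was on the high side if its 1 Slimp probe set read above 11 (log2) and on the low side if it read below. The 5 G1 arrays of the 10 in the series entered, with 2 on the high side and 3 on the low side. S2 is an embryonic cell line with properties of haemocytes, the blood cells of the fly.

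The series was made to measure what depletion of SLIMP does to transcripts of cells in G1 and in G2/M. Per the labels, all cultures were S2 stable lines given CuSO4 to switch on the knockdown, and live cells stained with Vybrant DyeCycle Violet were sorted by DNA content. The groups used were G1 cells labelled control (WT genotype, replicates 1, 2 and 3) and G1 cells labelled SLIMP knockdown (replicates 2 and 3). RNA came from 25000 sorted cells a library and was amplified for 15 PCR cycles. The labels do not say whether replicates were separate cultures, and the spread behind each p may therefore be technical. A library is called below by its label and number, for example control 3 or knockdown 2.

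Slimp encodes an insect mitochondrial protein that descends from seryl-tRNA synthetase and no longer charges tRNA. The synthetase that does charge mitochondrial serine tRNA is encoded by SerRS-m. Work in Drosophila ties SLIMP to mitochondrial translation and respiration, and to the cell cycle, where it has been studied together with the mitochondrial protease Lon.

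The high side held the libraries labelled control 3, at 12.55 (log2), and knockdown 2, at 12.59. The low side held control 1 at 8.80, control 2 at 8.95 and knockdown 3 at 8.68. Nothing lay near the threshold, since the nearest values on its 2 sides were 12.55 and 8.95. The means were 12.57 ± 0.02 (SD, n = 2) and 8.81 ± 0.14 (SD, n = 3), a 13.6-fold difference. These values defined the sides and carry no test. Each side holds both genotype labels, and the labels do not settle whether the high or the low level belongs to a knockdown, so no effect of SLIMP depletion is read from any difference below. Native Slimp transcript, signal from the induced knockdown construct and exchanged labels cannot be told apart in these values, so "Slimp signal" means the reading of the probe set.

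The G2/M libraries of the same labels and numbers were not used to define the sides, and they read Slimp in the same way. Control 3 and knockdown 2 read 12.51 and 12.53 in G2/M, and control 1, control 2 and knockdown 3 read 8.90, 9.06 and 8.97. Of the genes next to Slimp on arm 3R, Kal1, which overlaps it in RefSeq, differed by -0.59 on the log2 scale (high minus low, adjusted p = 0.0173 in limma). Signal of overlapping genes may not be separable. The next genes on the other side, the stress kinase genes p38c and p38a, differed by -0.31 and 0.30 and did not pass (adjusted p = 0.160 and 0.0727). SerRS-m read 9.76 and 10.07 on the high side and 10.01, 10.08 and 9.88 on the low side. These SerRS-m values overlap, with a difference of -0.08 ± 0.12 (SE, adjusted p = 0.771).

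Similarity over all other probe sets followed the sides. Control 3 and knockdown 2 correlated at r = 0.9976 over probe sets, and the 3 low libraries among themselves at 0.9947 to 0.9961. Pairs across the sides gave 0.9885 to 0.9913. Probe sets are not independent samples, so no p is given. The cell line was checked against 3 defining haemocyte genes, and other members of the haemocyte list did differ between the sides, as given further on. The GATA factor gene srp read 9.67 ± 0.18 (SD, n = 2) and 9.73 ± 0.12 (SD, n = 3), hemolectin (Hml) 11.33 ± 0.26 and 11.36 ± 0.13, and the phagocytic receptor gene eater 11.08 ± 0.10 and 11.01 ± 0.15. Control probe sets at the 3′ and 5′ ends of transcripts, a measure of RNA quality and priming, differed between the sides too. The 3′ minus 5′ difference for actin was 0.65 and 0.59 on the high side against 0.35 to 0.46 on the low side, and for eIF-4a it was 1.28 and 1.19 against 1.32 to 1.43. The GAPDH values overlapped, at 1.06 and 0.93 against 1.04 to 1.16. The part of these shifts in the results was not tested.

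Many transcripts differed between the sides. Of 18768 probe sets, limma called 898 higher on the high side (4.78%) and 595 lower (3.17%) at an adjusted p under 0.05, together 7.96%. Most of these differences were modest. The smallest was 1.27-fold, the median 1.55-fold and the largest 12.6-fold, with 273 of at least 2-fold (179 higher, 0.954%, and 94 lower, 0.501%) and 37 of at least 4-fold. In 7679 probe sets (40.9%) the libraries of the 2 sides did not overlap, and all 1493 called probe sets were among them. Because the sides were chosen from these arrays, the p-values state how far the sides stand apart relative to their own spread, and not the chance of a treatment effect. The count rested on both high libraries. It was 335 without control 3, 395 without knockdown 2 and 918 without knockdown 3.

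The sides were also compared with the genotype label taken into account. With label as a covariate 1064 probe sets passed (646 higher, 418 lower). Among arrays labelled control, where control 3 stands alone against control 1 and control 2, limma called 47. Knockdown 2 against control 1 and control 2, chosen after the data were seen, gave 50. In these last 2 fits the lone high library is assumed to vary like the low ones.

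Several genes with the largest differences read near the bottom of the scale on the low side. Ir75a, a gene for an ionotropic receptor of the olfactory system, read 8.15 and 8.34 on the high side and 4.70, 4.65 and 4.4 on the low side. That is a 12.6-fold difference (log2 3.66 ± 0.12 SE, adjusted p = 3.54e-05). No detection calls were used here, so a fold against values under 6 is one of relative signal, and its true size is not settled. Its close relative Ir75b read 7.58 and 7.88 against 5.16, 4.62 and 4.96, a 7.03-fold difference. Both receptor genes read below the array medians (6.554 to 6.608) in every low library and above them in both high ones.

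CG3397 read 8.89 and 8.90 against 5.42, 5.53 and 5.27, an 11.3-fold difference. CG1208 was 9.61-fold higher, CG43074 8.18-fold, and the odorant-binding protein gene Obp83cd 7.35-fold. The high libraries agree closely in CG3397 and differ most in Obp83cd, at 7.87 in control 3 and 7.23 in knockdown 2.

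The gene trol encodes perlecan, a heparan sulfate proteoglycan of basement membranes, and it read 11.61 and 11.75 against 9.62, 9.51 and 9.45, a 4.46-fold difference. Of the 8 trol probe sets 5 were higher and the other 3 did not pass, at -0.16, -0.14 and -0.12, so the probe sets of this long gene disagree. The tetraspanin gene Tsp42Ec read 9.38 and 9.36 against 6.62, 6.99 and 6.91 (5.77-fold). The TGF-beta family ligand gene mav read 9.50 and 9.62 against 7.20, 7.34 and 7.13 (5.06-fold).

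The others of these 15 were Elal (5.99-fold), the muscle LIM protein gene Mlp60A (5.67-fold), Srg1 (5.54-fold), CG18823 (4.99-fold), CG8160 (4.67-fold) and CG42268 (4.4-fold). A further probe set of CG42268 differed by 1.58 and passed, while the remaining one differed by 0.08 and did not (adjusted p = 0.796). All 3 probe sets of Mlp60A were higher, at 0.72, 0.81 and 2.50 on the log2 scale. Adjusted p-values for the 15 ran from 3.54e-05 to 0.0018.

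**Figure D1:**
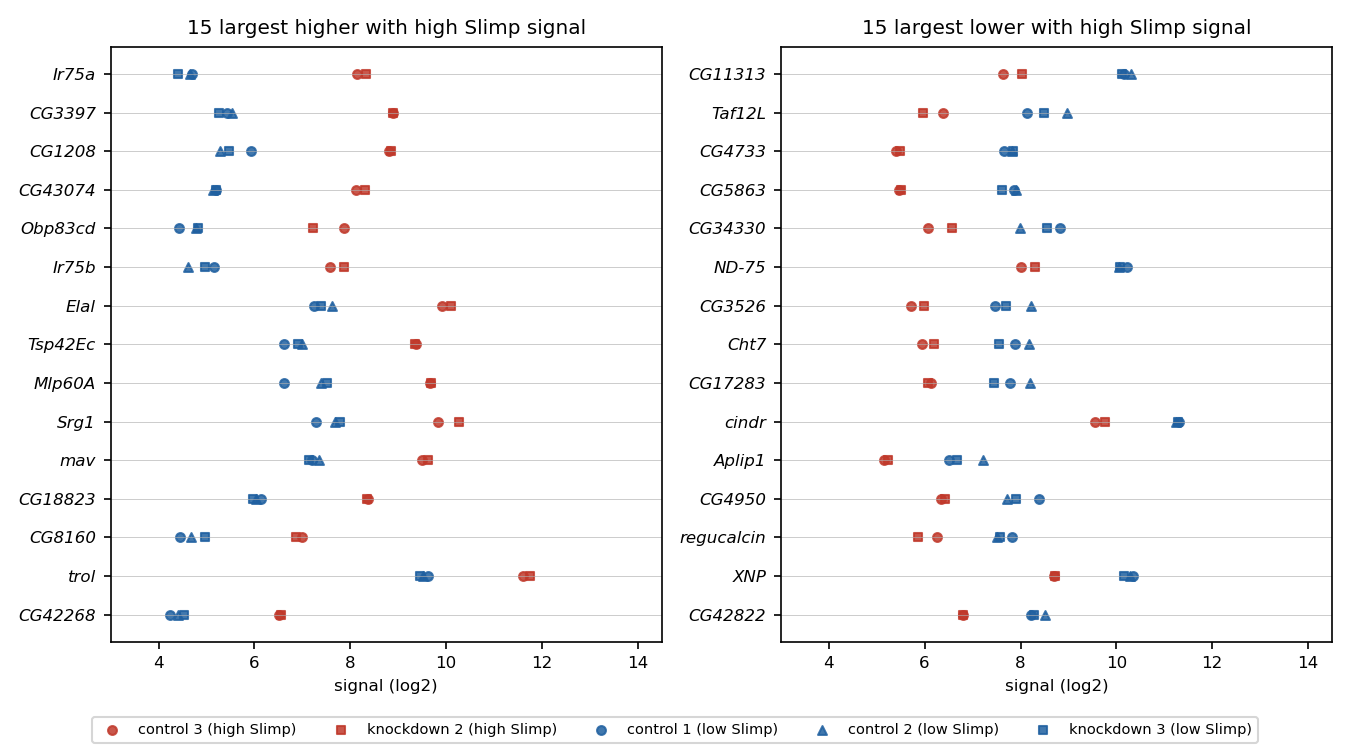
Signal (log2, x axis) of the 15 genes with the largest positive (left) and the 15 with the largest negative (right) high minus low difference in G1. Each point is 1 library, red for the high side and blue for the low side. In every gene shown the red and blue points are apart, which the rule for naming these genes required, as in Ir75a (8.15 and 8.34 against 4.4 to 4.70).

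A respiratory chain gene was among the 15 genes with the largest negative differences. ND-75 encodes the large iron-sulfur subunit of complex I, which takes electrons from NADH, and it read 8.00 and 8.31 on the high side against 10.23, 10.06 and 10.07. The difference was 3.90-fold (log2 -1.97 ± 0.12 SE, adjusted p = 0.000224). No library of one side came near the other side.

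CG11313 read 7.64 and 8.03 against 10.16, 10.31 and 10.11, 5.13-fold lower. Taf12L, named for its likeness to a subunit of the transcription factor TFIID, was 5.10-fold lower in 1 of its 2 probe sets, while the other differed by 0.07. CG4733 was 5-fold lower, CG5863 4.94-fold, CG34330 4.36-fold and CG3526 3.83-fold. On the high side CG4733, CG5863 and CG3526 had means of 5.45, 5.49 and 5.86, under 6, so the size of their folds is not settled. The second probe set of CG3526 differed by -0.54 and did not pass (adjusted p = 0.0704).

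XNP, the fly counterpart of the chromatin remodeller ATRX, read 8.69 and 8.72 against 10.34, 10.28 and 10.15 (2.93-fold lower). The adaptor gene cindr, of the CIN85 and CD2AP family, read 9.55 and 9.76 against 11.30, 11.25 and 11.29 (3.09-fold lower). Its second probe set was higher on the high side by 1.17 (adjusted p = 0.000824), so the 2 probe sets of cindr changed in opposite directions and no direction is given for the gene.

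The others of these 15 were the chitinase family gene Cht7 (3.48-fold), CG17283 (3.25-fold), CG4950 (3.05-fold), CG42822 (2.92-fold), Aplip1 (3.05-fold) and regucalcin (2.96-fold). Aplip1 encodes a JNK scaffold that links cargo to kinesin, and regucalcin is named for its mammalian calcium-binding counterpart. The high-side mean of Aplip1 was 5.19, also under 6, so the size of its fold is not settled. The other probe sets of regucalcin differed by -0.85, which passed, and by -0.01, which did not (adjusted p = 0.968). Adjusted p-values for the 15 ran from 0.000109 to 0.00402. Without control 3, 27 of the 30 largest differences passed. With label as a covariate all 30 passed. In arrays labelled control alone 18 passed, and 18 passed without control 3 and knockdown 3, with the same sign in all 30 in each of these fits.

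Gene lists were read against 11981 genes with 1 probe set each, of which 9.16% passed (5.86% higher, 3.31% lower) with a median difference of 0.01 (log2). Calls over all probe sets also fell when a library was left out or in arrays labelled control, as given above. A fall in a list's count in those fits is therefore not by itself particular to that list. Glycolysis was the list with the largest share. Of 13 measured genes 8 were higher on the high side (61.5%), none was lower, and the median difference was 0.46. Pfk, the enzyme of the committed step, read 10.96 and 11.03 against 9.57, 9.71 and 9.47, a 2.67-fold difference (adjusted p = 0.000422). Tpi, triose phosphate isomerase, read 11.11 and 11.20 against 10.28, 10.24 and 10.15 (1.91-fold).

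Of the other list members, Pgi was higher by 0.82, Pglym78 by 0.64, Pgk by 0.63, Ald1 by 0.59, Eno by 0.46 and the trehalase gene Treh by 0.37 on the log2 scale. Hex-A (0.41), Gapdh1 (0.35), Pepck1 (0.07), Pdk (-0.14) and Gpdh1 (-0.19) did not pass. The count was 3 without control 3 and 2 without knockdown 2, and 0 of the 13 passed in arrays labelled control alone.

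Of 10 measured genes of the tricarboxylic acid cycle 1 was higher and 1 lower (20%). PCB, pyruvate carboxylase, was lower by 0.89 in 1 probe set and by 0.94 in its other, and Ogdh was higher by 0.38. Ogdh did not pass with label as a covariate, nor without control 1, control 3, knockdown 2 or knockdown 3.

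The Imd and Toll pathways switch on antimicrobial peptide genes. Of 23 measured immune genes 5 were higher and none lower (21.7%), with a median of 0.17 and a range from -0.62 to 1.84. Attacin D (AttD) read 12.74 and 12.70 against 10.82, 10.90 and 10.92, a 3.58-fold difference (adjusted p = 0.000143). Diptericin B (DptB) read 11.37 and 11.21 against 9.98, 10 and 9.88 (2.52-fold). Drosomycin (Drs) was higher by 0.61, CecB by 0.55 and key, the gene for the IKK gamma subunit of the Imd pathway, by 0.58. The count was 2 both without control 3 and without knockdown 2.

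Heat shock proteins are chaperones, some induced by stress and some made at all times. Hsp68, a stress-inducible member of the Hsp70 family, read 11.40 and 11.39 against 9.52, 10.06 and 9.52 (3.24-fold, adjusted p = 0.0018). The small heat shock genes Hsp26 and Hsp27 were higher by 0.93 and 0.76. Hsc70-4, the constitutive cytosolic relative, was lower by 0.71, at 12.27 and 12.37 against 12.99, 13.04 and 13.05. In all, 3 of 13 were higher and 1 lower (30.8%), with a median of 0.14, and 1 was higher and none lower without control 3, and 1 higher and 1 lower without knockdown 2. The mitochondrial chaperones Hsp60A (0.10) and Hsc70-5 (0.08) did not pass.

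**Figure D2:**
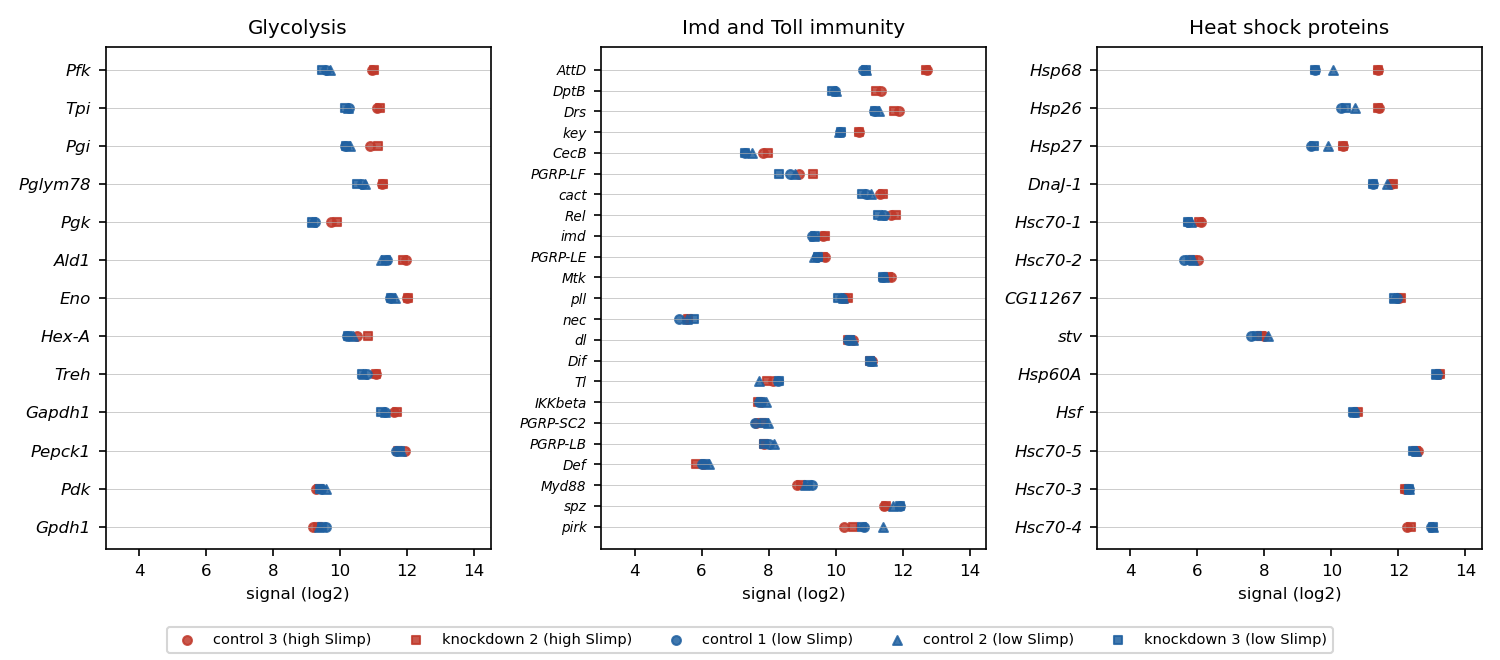
Signal (log2, x axis) of every measured member of the glycolysis, immunity and heat shock lists in the 5 G1 libraries, with red for high and blue for low Slimp signal. Pfk, Tpi, AttD, DptB and Hsp68 show the widest separation, Hsc70-4 separates the other way, and points of most immune genes lie close together.

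Genes for cytosolic aminoacyl-tRNA synthetases, which charge tRNAs for protein synthesis, were higher in 5 of 16 cases and lower in none (31.2%, median 0.26). GlyRS read 10.69 and 10.70 against 9.56, 9.50 and 9.53 (2.25-fold, adjusted p = 0.00042). TrpRS was higher by 0.53, AlaRS by 0.51, HisRS by 0.41 and LeuRS by 0.39. With label as a covariate 2 passed, 3 passed without control 2, and 1 passed without control 3, without knockdown 2 or without knockdown 3.

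Genes for proteins that act beside SLIMP in mitochondria were read next. None of 14 genes for mitochondrial aminoacyl-tRNA synthetases passed (median 0.01, range -0.30 to 0.29). None of 12 genes of mtDNA upkeep and SLIMP partners passed either (median 0.01, range -0.32 to 0.45). Among them Lon, the matrix protease gene, differed by -0.10 and the packaging factor gene TFAM by -0.16. The single-strand binding protein gene mtSSB differed by -0.32 (adjusted p = 0.0665) and the polymerase gene PolG1 by 0.45 (adjusted p = 0.0906). With replicate number as a block 2 of the 12 were higher, where 1561 of all 18768 probe sets passed. A variance trend and robust fit called 1 of the 12 higher and 1 lower, and 2310 of all probe sets. In G2/M 1 of the 12 was lower, mtSSB at -0.33 (adjusted p = 0.029).

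Of 12 genes for mitochondrial proteases and chaperones 1 passed (8.33%, median 0.19), Spg7, a subunit gene of the inner membrane m-AAA protease, higher by 0.40. It passed in none of the fits that left out 1 culture. Of 69 genes for mitochondrial ribosomal proteins 2 were higher and 5 lower (10.1%, median -0.15). The lower ones included mRpS14, at 9.26 and 9.42 against 10.15, 10.10 and 10.08, and mRpL48 and mRpL36, each lower by 0.46. The higher ones were mRpL39 (0.45) and mRpL28 (0.38). The count of 7 was 1 without control 2, without knockdown 3 or with label as a covariate, and 22 (4 higher, 18 lower) with all 10 arrays in 1 fit. That fit called 1635 of all 18768 probe sets higher and 1132 lower. It had no term for culture, so it counted the G1 and G2/M libraries of a culture as independent. Fewer list members passed without control 3 and without knockdown 2, fits that leave 1 high library, with list medians of -0.09 and -0.22.

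Complex I genes include ND-75, described above. Of 32 complex I genes 2 were lower and none higher (6.25%, median -0.14), and the second was ND-B18 at -0.47, where 1 gene was lower without control 3, knockdown 2 or knockdown 3. Of 44 genes of complexes II to V 1 was higher and 1 lower (4.55%, median -0.15). COX5A, a subunit gene of cytochrome c oxidase, was lower by 0.39, and COX4L, a relative of a subunit gene, was higher by 0.65. Neither passed without control 3 or without knockdown 2, and no gene of the list was lower without control 1 or knockdown 3. With quantile normalization repeated on the deposited values 6 complex I genes were lower, as were 724 of all 18768 probe sets. Of 41 genes for cytosolic ribosomal proteins 1 was higher and 1 lower (4.88%, median 0.04), namely RpS5b (0.37) and RpS19b (-0.38), and neither passed when any 1 culture was left out.

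**Figure D3:**
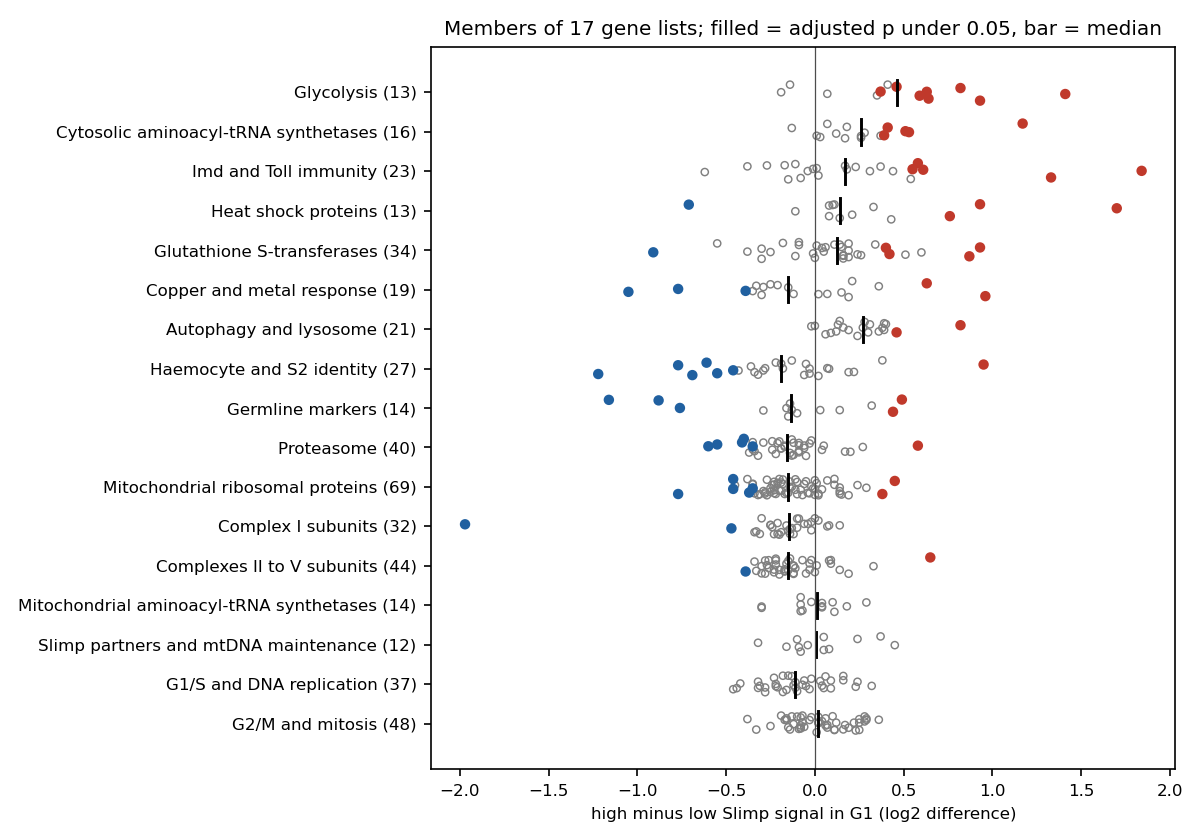
High minus low difference in G1 (log2, x axis) of every measured member of the main gene lists, with the number of members in parentheses. Filled points passed at an adjusted p under 0.05 and bars are list medians, from 0.46 for glycolysis to -0.19 for haemocyte genes, and the isolated point at -1.97 is ND-75.

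No measured gene of the cell cycle lists passed in G1. Some main regulators had no probe set under their symbol and were not read, among them CycA, Cdk1, stg, polo, aurA, E2f1, Mcm7 and RnrS. None of 37 genes of G1/S and DNA replication passed (median -0.11, range -0.46 to 0.32). None of 48 genes of G2/M and mitosis passed (median 0.02, range -0.38 to 0.36). The genes with the smallest p in the 2 lists were RnrL (0.32), PolE1 (-0.44), Cap-H2 (-0.33) and feo (0.36), with adjusted p from 0.0684 to 0.0934. The libraries of the 2 sides did not overlap in these genes, nor in 40.9% of all probe sets. With all 10 arrays in 1 fit 1 of the 37 was higher and 1 lower, and 5 of the 48 were higher and 2 lower. That fit, which had no term for culture, called 2767 of all 18768 probe sets, 1635 higher and 1132 lower. Without knockdown 3, 1 of the 48 was lower. In the G2/M libraries of the same cultures 26 of the 37 and 21 of the 48 were lower on the high side and none was higher, with medians of -0.52 and -0.29. Over all genes 4.98% were higher and 6.69% lower in G2/M. None of these cell cycle genes passed the test of the difference between phases, which 38 of all probe sets passed (0.202%, with 0.0266% higher and 0.176% lower in G2/M than in G1).

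Transcripts of metal handling differed in both directions, in 5 of 19 genes (26.3%, 2 higher, 3 lower, median -0.15). All cultures had copper, per the labels. The metallothionein gene MtnB read 10.67 and 10.54 against 11.19, 11.67 and 11.28, lower by 0.77 (adjusted p = 0.0231). The metallothionein gene MtnA lay near the top of the scale, at 14.01 ± 0.02 (SD, n = 2) and 14.13 ± 0.02 (SD, n = 3), and did not pass.

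The zinc transporter gene ZnT35C was lower by 1.05 and the copper importer gene Ctr1B by 0.39. Ccs, the copper chaperone of superoxide dismutase, was higher by 0.63. The transferrin gene Tsf1 was higher by 0.96, with its other probe sets at 1.21, which passed, and 0.08, which did not. None of these 5 passed without control 3, and without knockdown 2 the list had 1 higher and none lower.

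Of 34 glutathione S-transferase genes, which detoxify electrophiles, 4 were higher and 1 lower (14.7%, median 0.12). GstE9 (0.93), GstE11 (0.87), GstE1 (0.42) and GstZ1 (0.40) were higher, and GstE2 was lower by 0.91. Without control 3, and without knockdown 2, 1 was higher and 1 lower, and without knockdown 3 2 were higher and 1 lower. GstE2 read 10.83 and 10.68 against 11.72, 11.60 and 11.69, so neighbours in this family ran in opposite directions. None of 14 antioxidant genes passed (median 0.03, range -0.37 to 0.27).

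Several haemocyte genes were lower. Of 27 such genes 6 were lower and 1 higher (25.9%, median -0.19). NimC4, a receptor gene for engulfing apoptotic cells, read 8.61 and 9 against 10.28, 9.72 and 10.08 (2.34-fold lower). The peroxidasin gene Pxn was lower by 0.77, the papilin gene Ppn by 0.69, the engulfment receptor gene drpr by 0.61, the PDGF and VEGF receptor gene Pvr by 0.55 and the transcriptional cofactor gene ush by 0.46. Nplp2 was higher by 0.95. The log2 of the list's summed signal was 15.88 and 15.89 on the high side and 15.90 to 16.07 on the low side. None of the 27 passed without control 3, and 1 was higher and 2 lower without knockdown 2.

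Markers of other cell types were read in the same way. All 13 fat body and gut genes had a mean under 6, and none passed. Of 10 muscle genes 8 had a mean under 6 and 1 passed, bt, which encodes projectin, at 5.70 and 5.67 against 3.67, 3.87 and 4.14. The log2 summed signal of the muscle list was 9.72 to 9.82 on the high side and 9.55 to 9.67 on the low side. None of 13 neuronal and glial genes and none of 11 crystal cell and lamellocyte genes passed. Of 15 epithelial genes 2 were higher (13.3%), kune by 0.51 and Nrx-IV by 0.36, both genes of septate junctions, and the list's log2 summed signal was 13.50 to 13.52 against 13.16 to 13.37. Neither epithelial gene passed without control 2, control 3, knockdown 2 or knockdown 3. The part of these markers in the results was not tested.

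Of 14 germline genes 2 were higher and 3 lower (35.7%, median -0.14). AGO3, an Argonaute of the piRNA pathway, which silences transposons, read 7.82 and 7.72 against 8.99, 8.94 and 8.85 (2.23-fold lower). The translational regulator gene bgcn was lower by 0.88 and the Tudor protein gene tej by 0.76. The other Argonaute genes of the list ran the other way, with aub higher by 0.49 and piwi by 0.44. The counts were 0 higher and 2 lower both without control 3 and without knockdown 2, and 0 higher and 3 lower without control 2 or knockdown 3. None of 7 measured genes of the RNA interference machinery passed, with r2d2 at 0.38 (adjusted p = 0.0672) and Dcr-2 at 0.23. AGO2, AGO1 and Dcr-1 had no probe set under their symbol and were not read.

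Of 19 genes of DNA damage and apoptosis 3 were lower and none higher (15.8%), while the list's median was 0.12. The checkpoint kinase gene tefu, the fly ATM, read 9.30 and 9.33 against 10.48, 10.26 and 10.23, lower by 1.01 (adjusted p = 0.00209). The TNF gene egr was lower by 0.71 in 1 probe set and 0.66 in its other. The Chk1 gene grp was lower by 0.41 in 1 probe set, while its others, at -0.28 and -0.09, did not pass.

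Of 16 JNK and stress signalling genes 2 were lower (12.5%), the matrix metalloprotease gene Mmp2 by 0.90 and egr again. A second Mmp2 probe set differed by -0.13 and did not pass (adjusted p = 0.608). Of 14 genes of the ATF4 response the sestrin gene Sesn was lower by 0.86 and the kinase gene PEK higher by 0.56 (14.3%). Without control 3 the JNK list had 1 call, and without control 3 or knockdown 2 the ATF4 list had 1, a lower one. Of 21 autophagy genes Atg1, the initiating kinase, was higher by 0.82 and Atg3 by 0.46 (9.52%, median 0.27). Leaving out knockdown 2 left none of the 21, and leaving out control 1, control 3 or knockdown 3 left 1.

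Of 40 proteasome genes 5 were lower and 1 higher (15%, median -0.15), among them Prosalpha4 (-0.55), Rpn8 (-0.41), Prosbeta4 (-0.40) and Prosalpha7 (-0.35). The other calls were testis-type relatives of subunits, Prosalpha6T (-0.60) and Prosbeta2R2 (0.58). Prosalpha6T read 3.87 and 3.60 against 4.26, 4.36 and 4.39, near the bottom of the scale, so its difference is not settled in size. Of the 40 genes 11 had a mean under 6. None of the 40 passed without control 3 or without knockdown 2, 1 was lower without knockdown 3, and 1 was higher and 2 lower without control 1 or control 2. With label as a covariate 3 of the 40 passed. Of 22 ecdysone response genes 2 were higher and 1 lower (13.6%), ImpE3 (0.78), Eip93F (0.40) and the transporter gene E23 (-0.80), with 1 higher and none lower without knockdown 2 or knockdown 3. None of 11 Notch and Hippo genes passed, and the 1 measured histone gene did not.

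The called genes were also placed along the chromosomes. On the large arms 8.6% (X), 9.16% (2L), 9.56% (2R), 9% (3L) and 9.18% (3R) of measured genes passed. The small chromosome 4 had 14 genes higher and 1 lower of 65 (23.1%), with a median difference of 0.14. The genes mav (2.34) and bt (1.79) lie there, as do CG31997 (1.49), dpr7 (0.97), RhoGAP102A (0.92) and 4E-T (0.92), chosen after their values were seen. The gene lower on the high side was Actbeta (-0.98). In G2/M 13 of the 65 were higher and 1 lower. The count in G1 was 7, all higher, both without control 3 and without knockdown 2, and 9 without knockdown 3.

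Some called genes were neighbours in RefSeq's gene order. Of 11884 pairs of neighbouring measured genes, both passed in 184, in the same direction in 134 and in opposite directions in 50. Of all measured genes 9.16% passed, 5.86% higher and 3.31% lower, so some neighbours would both pass at that share alone. No chance level is given for these counts, so they are not read as clustering. Overlap between neighbours was not tested. There were 17 runs of 3 or more neighbours called in 1 direction.

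The longest run was on 3R and lower on the high side, with Sur-8, CG34279, CG17283, CG5860, CG5863 and CG42822, with differences from -0.88 to -2.31 on the log2 scale. CG5863 read 5.47 and 5.51 against 7.87, 7.90 and 7.61, and Sur-8, a leucine-rich repeat protein gene of Ras signalling, 9.62 and 9.42 against 10.48, 10.40 and 10.32. No library of the high side reached the low side in these genes. In G2/M 5 of the 6 passed, and CG5860 did not (-0.43, adjusted p = 0.0517).

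A run on 3L was higher and held sstn (0.91), GlyRS (1.17), the CTP synthase gene Ctps (0.93), CG13458 (1.39) and the centriole gene Cep135 (0.76). Another on 3R held CG13640 (1.18), CG7016 (1.47), Srg1 (2.47) and Elal (2.58). A run on X held lky (1.49), the dopamine receptor gene Dop2R (1.22), CG9570 (1.46) and the forkhead gene fd19B (0.58). The 2 other runs of 4 or more, both on 3L and higher, began with Atg1 and CG32036.

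**Figure D4:**
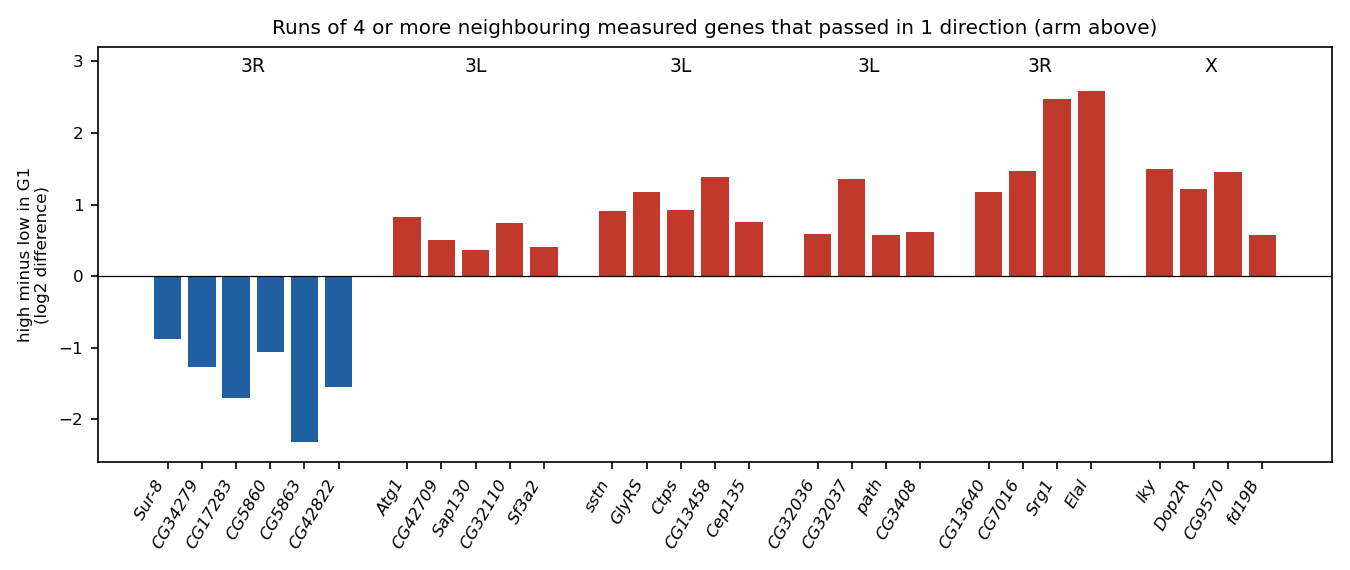
High minus low difference in G1 (log2, y axis) of genes in runs of 4 or more neighbouring measured genes that passed in the same direction, in RefSeq order, with the chromosome arm above. Bars start at 0. The run of 6 on 3R lies below 0, from -0.88 to -2.31, and the other runs lie above.

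The G2/M libraries of the same cultures gave the same measure in arrays that the sides were not taken from. They share label and number with the G1 libraries, so they are read as repeat libraries and not as new cultures. The labels do not state this pairing. In G2/M limma called 788 probe sets higher (4.2%) and 1106 lower (5.89%). Of the G1 calls, 892 passed in G2/M in the same direction (59.7% of the G1 list and 47.1% of the G2/M list) and 1 in the opposite direction.

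All 30 genes with the largest differences in G1 had the same sign in G2/M and passed there. Ir75a differed by 3.13, CG3397 by 3.68, ND-75 by -1.92 and AttD by 1.83 in G2/M. For CG17283 the difference was -0.66 in G2/M against -1.70 in G1. For CG42268 it was 0.95 against 2.14 and for CG18823 1.24 against 2.32. These 2 of the 30 passed the test of the difference between phases, though the other probe sets of CG42268 did not.

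**Figure D5:**
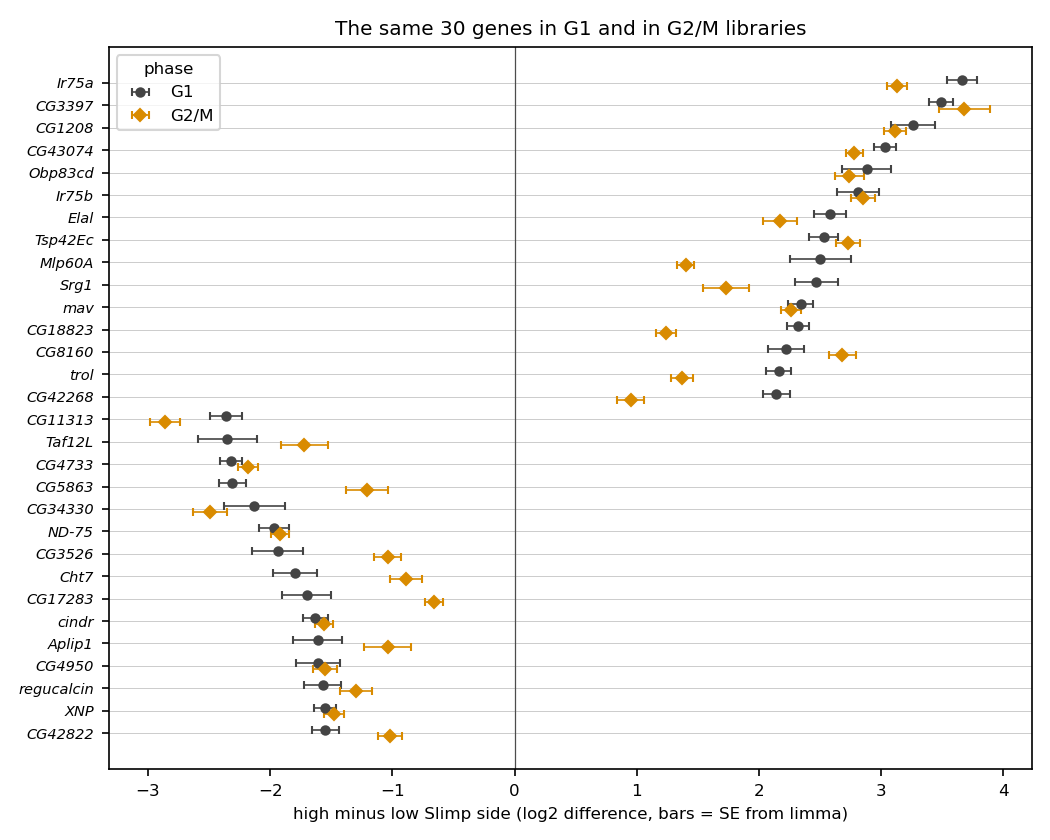
High minus low difference (log2, x axis) with limma's SE for the 30 genes with the largest differences in G1 (circles), beside the same difference in the G2/M libraries of the same cultures (diamonds). All G2/M points lie on the same side of 0 as the G1 points, and several are closer to 0, such as CG17283 (-0.66 against -1.70).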

How the data were processed

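Values deposited by the authors are on the log2 scale, 1 per probe set and array. The submitters' processing notes name RMA, with no version. RMA gives all arrays 1 distribution of probe intensities before probe sets are summarized, so a shift shared by most transcripts would largely not show. The deposited probe set values still differed in distribution, with array medians from 6.554 to 6.608. Of 18952 probe sets, 183 array controls were left out, and Slimp was left out of the tests because it defines the sides, leaving 18768, dim ones included. GEO's annotation of the array gave 1 symbol to 13647 probe sets, updated through RefSeq Release 6 for 13544. Several symbols (402) or none (4720) left a probe set unnamed, so some list members were not analysed here. The few arrays limit how precise any difference is.

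High and low sides were compared over the 5 G1 arrays with limma 3.58.1 in R 4.3.3 (1 coefficient for side, residual df 3, prior df 4.28), with Benjamini-Hochberg adjustment across the 18768 and a threshold of 0.05. Every adjusted p in the text is limma's. G2/M libraries took the side of the G1 library with their label and number. Their differences from side means correlated with those of the G1 library at 0.195 to 0.393 over probe sets, where 2 libraries a side force equal values for the high side. The phase difference was tested on G2/M minus G1 per culture. The G1 sides share 2 replicate numbers.

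Named genes were SerRS-m, the 15 largest differences each way that passed without overlap (1 probe set per gene), and, for each of 33 gene lists, up to 4 members that passed or else up to 2 with the smallest p. Any further gene was picked with its values in view. Lists count each gene by its brightest probe set. The sides, lists and tests were chosen with earlier results of these data known. Alternatives covered the arrays fitted, label, replicate number, normalization, dim probe sets, variance model, threshold and left-out cultures. On simulated arrays the G1 fit recovered 76% of 200 changes of log2 1, and 98% of log2 2, among 18768 probe sets. Chromosome arms, neighbours and overlap come from gene positions in RefSeq Release 6. No sequences were used and no coordinates are printed.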

Additional observations from a re-analysis of the deposited data

Results flagged for a closer look

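For 3 of the named genes the high minus low difference itself differed between the phases, in a limma fit on G2/M minus G1 per culture. The value is the G2/M difference minus the G1 difference. It was -1.08 for CG18823 (2.32 in G1, 1.24 in G2/M), -1.19 for CG42268 (2.14 and 0.95) and -1.48 for tej (-0.76 and -2.24), each with an adjusted p of 0.0252. The sides were closer in G2/M for CG18823 and CG42268, and farther apart for tej, a germline gene of the piRNA pathway. The CG42268 probe set read 3.67 to 4.83 in G2/M, near the bottom of the scale, so its difference there is not settled in size. The other CG42268 probe sets did not pass between phases, at -0.52 and 0.14 (adjusted p = 0.251 and 0.656 in limma). Over all probe sets 38 passed this test (0.202%), and 1 passed without control 2. In limma 0 passed without control 3, knockdown 2 or knockdown 3, where 1784, 2553 and 1910 had an unadjusted p under 0.05, and 3 passed with replicate number as a block.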

How the results depend on the processing

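In G1 the count of 1493 ranged from 335 to 1338 when 1 culture was left out. It was 2767 with all 10 arrays in 1 fit, 2310 with a variance trend and robust fit, 273 with a log2 difference of at least 1, 47 in arrays labelled control and 50 without the cultures labelled control 3 and knockdown 3, an alternative chosen after seeing the data. In G2/M the main count was 1894, the range 761 to 1358, and the last 3 settings gave 181, 684 and 452. There repeated quantile normalization and cyclic loess moved the share of higher calls from 41.6% to 49.6% and 52%. In G1 they moved it from 60.1% to 52.9% and 54.1%. The phase difference called 38, and 0 to 33 with 1 culture left out. It called 72 with median centring, 468 among the upper part of probe sets by mean signal and 0 in arrays labelled control (1783 at an unadjusted p under 0.05) or without control 3 and knockdown 3 (1280). The cause was not tested, except that the fits without control 3 or knockdown 2 and the fits on arrays labelled control or without control 3 and knockdown 3 leave 1 high library. The fit of all 10 arrays had no term for culture, so it counted the G1 and G2/M libraries of a culture as independent. With replicate number as a replicate block the counts were 1561 in G1, 1726 in G2/M and 3 for the phase difference. The G1 libraries of the 2 sides with the same number correlated in their deviations at r = 0.102 for number 2 and 0.162 for number 3. The high G1 and G2/M libraries of a culture gave 0.195. Deviations of 2 high libraries from their mean are equal and opposite, so these values cannot decide what a shared number means. The main fit had no block for it. No named gene that passed changed sign under the alternatives run. SerRS-m, which did not pass, differed by 0.08 without control 3 and by 0.02 without control 3 and knockdown 3. Dim probe sets limit what can be read, since a low value gives relative signal only.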

Other observations

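Of the 38 probe sets whose high minus low difference differed between phases, the difference was lower in G2/M than in G1 in 33 and higher in 5. NijB, a ninjurin family gene, was higher by 1.73 in G1 and 0.20 in G2/M, and Dop2R by 1.98 and 0.56 in 1 probe set and by 1.22 and 0.39 in the other. CG1607 changed sign, at 0.72 in G1 and -0.63 in G2/M, and both differences passed. A second probe set of Tsf1 was higher by 1.21 in G1 and 0.20 in G2/M. The mitochondrial sirtuin gene Sirt4 differed by 0.19 in G1, which did not pass, and by -0.60 in G2/M, which did. Sr-CIV, a scavenger receptor gene, was lower by 1.49 in G1 and by 0.55 in G2/M. These genes were picked with their values in view.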
